A study of Mus musculus with 6 samples.

Results

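Sgk1, the FOXO transcription factors Foxo1, Foxo3 and Foxo4, and the FOXO-linked genes Klf2, Ccng2, Pik3ip1, Cited2 and Cdkn1b are described here in B lymphoma cells with and without deletion of PRDM15, a zinc finger factor with a PR domain. They are 9 of the 21448 genes in the deposited table, taken by symbol, and all 9 passed the filter on low values that left 10533 genes. The genes were chosen with the difference between the groups already known, so that difference is given as a description and supports nothing.

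RNA-seq was done on 6 libraries of primary lymphoma B cells from Eµ-Myc transgenic mice, 3 labelled PRDM15 KO and 3 labelled wild type, numbered 1 to 3 in each group. All 6 carry the Eµ-Myc transgene, a Myc gene driven by an immunoglobulin heavy chain enhancer that causes B cell lymphoma, and all were grown in medium with IL7. Per the labels' protocols, cells received 50 nM of 4-hydroxytamoxifen (OHT), which triggers the deletion, or ethanol as the control for 24 hours, and were collected 3 days later. Which libraries received OHT is inferred from the group names, so deletion and exposure to OHT cannot be told apart. The sources used here do not name the recombinase, the deleted stretch of the gene or the age of the mice, nor do they say whether equal numbers come from the same mouse. The 3 libraries of a group are called biological replicates in the series' design text.

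SGK1 is a serine/threonine kinase of the AKT family that is activated through PI3K, mTORC2 and PDK1. AKT and SGK1 phosphorylate FOXO proteins, which then leave the nucleus, so that FOXO targets are induced when PI3K signalling is low. In B cells FOXO1 is needed for early development, for the recombination genes and for homing receptors, and FOXO factors hold back proliferation through targets such as Cdkn1b and Ccng2. The transcript levels below say nothing of phosphorylation or of where the FOXO proteins were in the cell.

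Libraries held 28852951 to 41204788 reads in PRDM15 KO and 38581112 to 47255421 reads in wild type. Values are read counts scaled to the effective library size (CPM), not divided by gene length, and log2 differences are of log2(value + 1), PRDM15 KO minus wild type. The members had between 186 and 3386 reads in a library, so counting error alone was at most 7.33% of any value. Prdm15 itself was at 40.2, 40.9 and 39.2 in the libraries labelled PRDM15 KO and at 29.2, 47.3 and 41.3 in wild type replicates 1, 2 and 3 (p = 1 in an exact permutation test, two-sided, which cannot go below 0.1). The whole-gene value therefore did not separate the groups, and since the deleted stretch is not known it is no check of the labels. B lineage markers, led by Cd79b, summed to 1889, 2448 and 2319 in PRDM15 KO and 1952, 2482 and 2577 in wild type.

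The 17 macrophage and myeloid markers, led by Lyz2 and Csf1r, summed to 29.7, 2014 and 1107 CPM in PRDM15 KO replicates 1, 2 and 3, against 52.0, 202 and 139 CPM in wild type replicates 1, 2 and 3. In PRDM15 KO they were higher for 4, 16 and 17 of the 17 markers in pairs 1, 2 and 3, and none was at 0 in all 6 libraries. The erythroid and megakaryocyte markers, led by Pf4 and Itga2b, summed to 2.23, 49.5 and 28.3 in PRDM15 KO and 4.97, 7.82 and 4.32 in wild type. Except in PRDM15 KO replicate 1, Pf4 made up most of these sums, at 0.366, 48.7 and 27.2 in PRDM15 KO and 3.79, 6.07 and 2.52 in wild type. Itga2b did not follow it, at 0.998, 0.401 and 0.356 in PRDM15 KO and 0.721, 0.251 and 0.514 in wild type. Most of the myeloid transcripts and of Pf4 thus stood in PRDM15 KO replicates 2 and 3. T and NK cell markers, led by Lck and Klrb1c, summed to 22.7, 54.0 and 73.9 in PRDM15 KO and 28.8, 42.6 and 79.4 in wild type. Lck made up most of these sums, at 14.2, 39.0 and 71.0 in PRDM15 KO and 23.6, 41.2 and 78.0 in wild type. Of the 11 markers, 9, 10 and 9 were higher in PRDM15 KO in pairs 1, 2 and 3, whereas Lck was lower in each pair. Only 3 of the 11 averaged 1 CPM or more over the 6 libraries, so most of these counts come from values near the floor. Cd8a, named outside the rule after its values were seen, was at 0.765, 5.14 and 0.0237 in PRDM15 KO. In wild type it was at 0.134, 0.175 and 0.0642. Plasma cell markers, led by Xbp1 and Sdc1, summed to between 169 and 304 in PRDM15 KO and between 189 and 245 in wild type. Stromal and endothelial markers, led by Vim and Pecam1, summed to between 373 and 599 in PRDM15 KO and between 395 and 520.5 in wild type. These leading genes made up nearly all of both sums. The other plasma cell markers were at most 2.53, and the other stromal and endothelial markers at most 1.33, in any library. Pair 1 is thus the pair in which PRDM15 KO did not hold more myeloid transcripts, and the members are given pair by pair. In such bulk samples fewer cells of a type and less RNA per cell cannot be told apart.

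Sgk1 (ENSMUSG00000019970) was at 36.1, 44.5 and 46.1 CPM in PRDM15 KO replicates 1, 2 and 3, against 20.1, 15.9 and 21.7 CPM in wild type replicates 1, 2 and 3. Every PRDM15 KO library lay above every wild type library. Its mean was 42.2 ± 5.39 in PRDM15 KO and 19.3 ± 2.99 in wild type (SD, n = 3 each), a ratio of 2.19, and the log2 difference was 1.10 with an SD of 0.31 over the 3 pairs. By pair the log2 difference was 0.81, 1.43 and 1.05, which is a ratio of 1.79, 2.79 and 2.12. The difference was smallest in pair 1, where the summed myeloid markers were 29.7 in PRDM15 KO and 52.0 in wild type, and the part of those markers in the Sgk1 values was not tested.

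Cited2 (ENSMUSG00000039910) went the other way. It encodes a coactivator partner of p300 and CBP that limits HIF1 activity, and it is a known FOXO-induced gene. Cited2 was at 8.91, 6.37 and 9.01 in PRDM15 KO and at 14.9, 15.2 and 22.9 in wild type, with no overlap between the groups. The means were 8.10 ± 1.50 in PRDM15 KO and 17.7 ± 4.55 in wild type, a ratio of 0.458, and the log2 difference was -1.03 with an SD of 0.31 over pairs. It was -0.68 in pair 1, -1.14 in pair 2 and -1.26 in pair 3, so all pairs had the same direction. The difference was smallest in size in pair 1, as for Sgk1, and the part of the myeloid transcripts in it was not tested.

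Of the 9 genes, Sgk1 and Cited2 were thus the ones whose groups did not overlap. Among all tested genes the groups did not overlap for 1001, or 9.5%, of which 3.21% of the tested genes were higher and 6.29% lower in PRDM15 KO. In limma over all tested genes, none of the 9 passed an adjusted p of 0.05 without the replicate number, where 0.00949% of all genes passed. With the replicate number as a block, Sgk1 alone passed, where 0.873% of all genes passed and 0.133% passed as higher and 0.741% as lower in PRDM15 KO. In the count tests on recovered reads, edgeR passed none of the 9, at 0.0% of all genes without the block and 0.37% with it, and DESeq2 passed Sgk1 and Cited2, at 1.04% of all genes without the block and 7.01% with it. In limma with the block, none of the 9 passed without pair 2 or without pair 3, where 0.0% of all genes passed, and Sgk1, Klf2 and Cited2 passed without pair 1, where 7.97% of all genes passed. Because the genes were chosen on this difference, nothing is read from these counts.

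**Figure D1:**
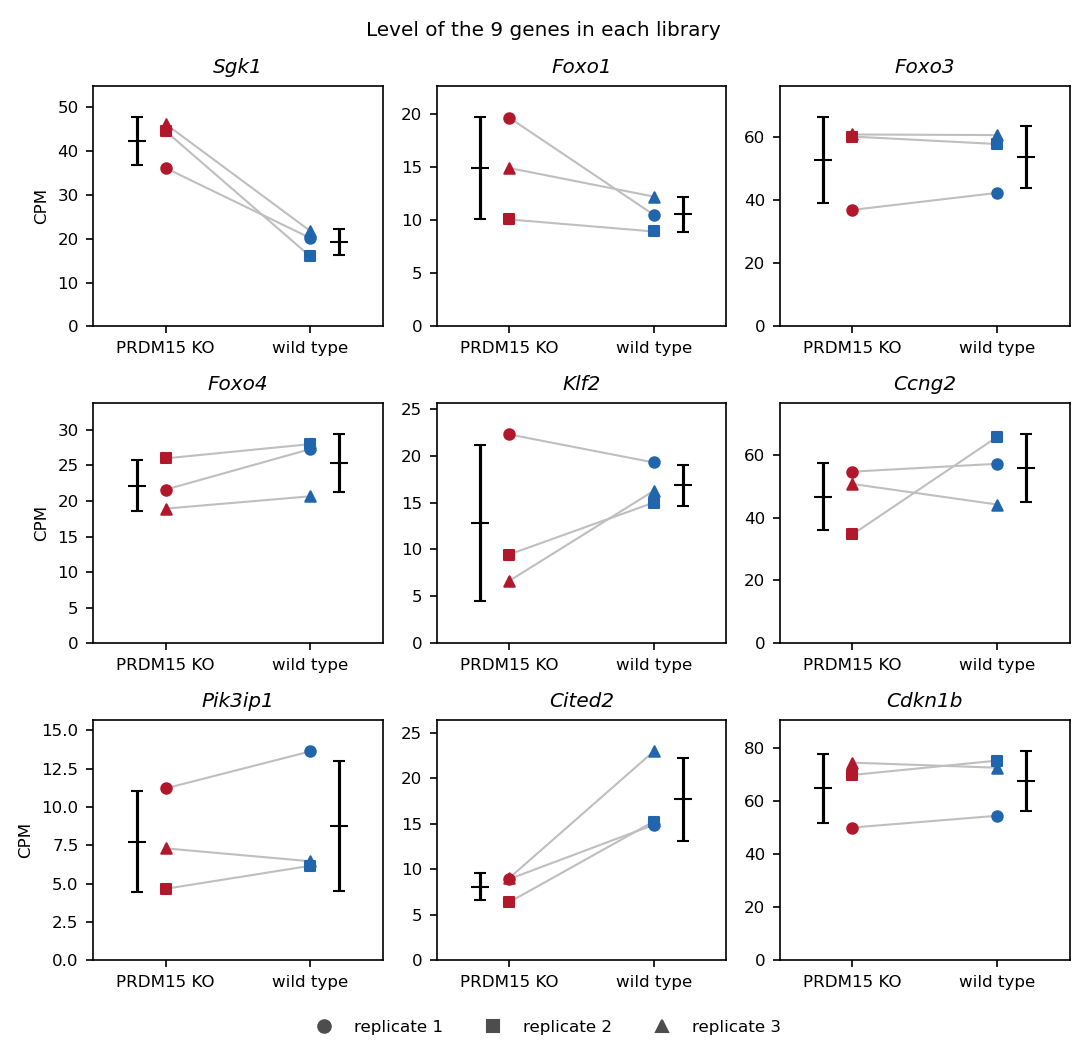
Level of each of the 9 genes in CPM in every library, on axes that start at 0, with PRDM15 KO left and wild type right. Grey lines join equal replicate numbers, and black bars give the mean and SD (n = 3); Sgk1 and Cited2 are the panels in which the groups do not overlap.

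Start regions of the members were searched for the E-box CACGTG, which MYC binds. They are printed for Sgk1 and Cited2, whose groups did not overlap. All 6 libraries carry the Myc transgene, and a part of MYC in the group difference was not tested. RefSeq windows of the 250 bases before a transcript start (GRCm38.p6, not the mm9 build of the deposited table) were found for 8 of the 9 genes, with 6 starts for Sgk1 and 13 windows in all. Capitals mark CACGTG, which reads the same on both strands and always overlaps the hypoxia response core ACGTG on each strand. It was present in Cited2, 153 bases before the start, and in 1 of the 6 Sgk1 windows, 246 bases before that start. The windows of Foxo1, Foxo3, Klf2, Ccng2, Pik3ip1 and Cdkn1b did not hold it. The Sgk1 start furthest along the gene, without CACGTG, is given for comparison. The Cited2 window is shown up to the first base that GENCODE M21 places in an exon.
Cited2 chr10:17722978-17723217, plus strand: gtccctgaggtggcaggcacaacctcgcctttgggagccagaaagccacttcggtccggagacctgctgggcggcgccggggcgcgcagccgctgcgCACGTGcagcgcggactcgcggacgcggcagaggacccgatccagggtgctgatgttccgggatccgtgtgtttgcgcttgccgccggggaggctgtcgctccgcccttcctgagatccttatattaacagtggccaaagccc
Sgk1 chr10:21993640-21993889, plus strand: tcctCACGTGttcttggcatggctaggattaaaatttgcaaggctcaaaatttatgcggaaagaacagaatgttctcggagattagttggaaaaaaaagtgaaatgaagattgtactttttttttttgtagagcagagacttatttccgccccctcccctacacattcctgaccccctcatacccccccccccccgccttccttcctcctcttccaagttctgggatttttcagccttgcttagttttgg
Sgk1 chr10:21994416-21994665, plus strand: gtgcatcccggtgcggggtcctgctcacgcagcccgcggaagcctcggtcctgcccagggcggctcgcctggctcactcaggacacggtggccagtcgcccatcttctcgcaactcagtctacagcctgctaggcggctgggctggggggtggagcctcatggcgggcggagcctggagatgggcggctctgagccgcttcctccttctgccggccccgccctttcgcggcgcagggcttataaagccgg

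Of 32851 such windows over all genes, 6.02% held CACGTG on either strand and 16.6% held ACGTG. The FOXO element GTAAACA, or its reverse complement TGTTTAC, was in none of the 13 windows and in 3.17% of all windows. The insulin response core CAAAACA, or its reverse complement TGTTTTG, was in the Ccng2 window, 16 bases before the start, and in 5.56% of all windows. These are matches of letters in short windows and not measured binding.

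The FOXO factors did not share a direction. Foxo1 (ENSMUSG00000044167), the main FOXO factor of early B cells, was at 19.7, 10.1 and 14.9 in PRDM15 KO and at 10.5, 8.95 and 12.2 in wild type. It was higher in PRDM15 KO in each pair, by 0.84, 0.16 and 0.27 on the log2 scale, but the groups overlapped: PRDM15 KO replicate 2 lay below wild type replicates 1 and 3. The means were 14.9 ± 4.80 in PRDM15 KO and 10.6 ± 1.65 in wild type, a log2 difference of 0.42 with an SD of 0.37 over pairs. PRDM15 KO replicate 1, the library with the lowest myeloid sum, was the highest of the 6. GENCODE M21 places Gm20402 on the opposite strand and Gm38034 on the same strand over Foxo1, and whether their reads entered the Foxo1 value is not known.

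Foxo3 (ENSMUSG00000048756), which restrains activated lymphocytes, was at 37.0, 60.3 and 60.9 in PRDM15 KO and at 42.4, 57.9 and 60.7 in wild type. Replicate 1 was low in both groups, and the difference within pairs was -0.19, 0.06 and 0.00. The mean log2 difference was -0.04 with an SD of 0.13, against a spread among libraries of one group of 13.6 CPM (SD) in PRDM15 KO and 9.88 in wild type. Foxo3 thus differed more between replicate numbers than between groups.

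Foxo4 (ENSMUSG00000042903), the remaining widely expressed FOXO factor, was at 21.6, 26.0 and 18.9 in PRDM15 KO and at 27.3, 28.0 and 20.6 in wild type. It was lower in PRDM15 KO in each pair, with log2 differences of -0.32, -0.10 and -0.12 and overlapping groups. Its mean was 22.2 ± 3.56 in PRDM15 KO and 25.3 ± 4.04 in wild type, a log2 difference of -0.18 with an SD of 0.12. Foxo1 and Foxo4 thus had opposite signs within each pair, and neither passed the threshold in limma, edgeR or DESeq2 with or without the block. Among all tested genes 16.7% were higher and 29.9% lower in PRDM15 KO in all 3 pairs, so a sign shared by the pairs is common.

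The summed level of the 3 FOXO factors overlapped between the groups, at 78.3, 96.3 and 94.8 in PRDM15 KO and 80.2, 94.8 and 93.6 in wild type. After division by the length of all annotated exons of each gene together, Foxo1 made up 17.0%, 7.02% and 11.3% of the FOXO transcripts in PRDM15 KO. In wild type it made up 8.30%, 6.18% and 9.20%. The share of Foxo1 was higher in PRDM15 KO in each pair, most of all in pair 1. In every library Foxo3 and Foxo4 each exceeded Foxo1 per this length, which can exceed that of the transcripts in use.

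Among the FOXO-linked genes the widest SD over pairs was that of Klf2 (ENSMUSG00000055148), a zinc finger factor of resting lymphocytes that drives S1pr1 and L-selectin in T cells. Klf2 was at 22.3, 9.46 and 6.64 in PRDM15 KO and at 19.3, 15.0 and 16.2 in wild type. PRDM15 KO replicate 1 was the highest library and PRDM15 KO replicates 2 and 3 the lowest, so the log2 difference was 0.20 in pair 1, -0.61 in pair 2 and -1.17 in pair 3. The mean was 12.8 ± 8.32 in PRDM15 KO and 16.8 ± 2.20 in wild type, and the log2 difference was -0.53 with an SD of 0.69. The libraries in which Klf2 was low are those with the summed myeloid markers at 2014 and 1107, and the part of those markers in the Klf2 value was not tested.

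Ccng2 (ENSMUSG00000029385), an atypical cyclin linked to cell cycle arrest, was at 54.6, 34.6 and 50.7 in PRDM15 KO and at 57.1, 65.6 and 44.1 in wild type. PRDM15 KO replicate 2 was the lowest and wild type replicate 2 the highest library, and the groups otherwise overlapped. Its mean was 46.6 ± 10.6 in PRDM15 KO and 55.6 ± 10.8 in wild type, and the log2 difference was -0.26, made of -0.06, -0.90 and 0.19 over pairs 1, 2 and 3. The SD over pairs of 0.57 exceeded that mean.

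Pik3ip1 (ENSMUSG00000034614), a membrane protein that binds and inhibits PI3K, was at 11.2, 4.67 and 7.30 in PRDM15 KO and at 13.6, 6.17 and 6.46 in wild type. Replicate 1 was the highest in both groups. The mean was 7.73 ± 3.29 in PRDM15 KO and 8.75 ± 4.22 in wild type, with a log2 difference of -0.15 and an SD over pairs of 0.26. Gm12592 lies over it on the opposite strand in GENCODE M21, and whether its reads entered the value is not known.

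Cdkn1b (ENSMUSG00000003031) encodes p27, the inhibitor of cyclin-dependent kinases that FOXO factors induce. It was at 50.0, 69.7 and 74.4 in PRDM15 KO and at 54.4, 75.1 and 72.4 in wild type. As for Foxo3, replicate 1 was the lowest library of each group. The mean was 64.7 ± 13.0 in PRDM15 KO and 67.3 ± 11.3 in wild type, and the log2 difference was -0.06, with -0.12, -0.11 and 0.04 by pair.

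**Figure D2:**
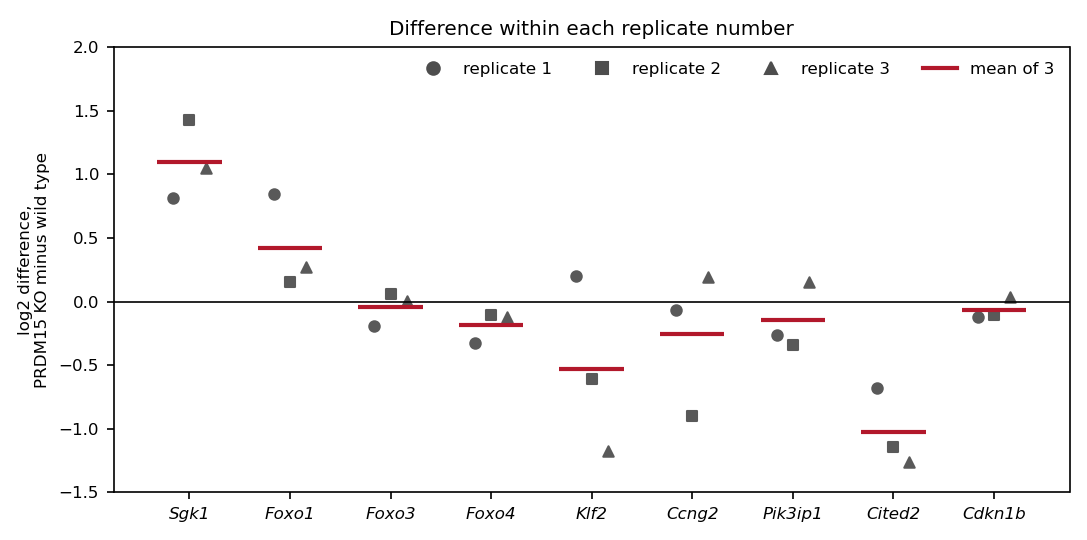
Difference of log2(value + 1), PRDM15 KO minus wild type, for each gene (horizontal axis) within replicate numbers 1, 2 and 3, with a red bar for the mean of the 3. Sgk1 and Foxo1 lie above 0 and Foxo4 and Cited2 below 0 in all 3, while the other 5 genes take both signs.

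Over the 9 genes, 2 were higher and 2 lower in PRDM15 KO in all 3 pairs, and 5 took both signs, against the 16.7% and 29.9% of all tested genes given above. The median log2 difference was -0.15 for the 9 genes and -0.03 for all tested genes. The 5 FOXO-linked genes summed to 147, 125 and 148 in PRDM15 KO and 159, 177 and 162 in wild type, without overlap. Their mean log2 difference was below 0 for all 5. Cited2 was the one of them that was lower in each pair. The other 4 FOXO-linked members took both signs over the pairs, which the plot of differences within replicate numbers shows. The genes were chosen with the group difference known, so nothing is read from the sums.

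The 9 genes also differed in what their values followed. The sum of squares of log2(value + 1) over the 6 libraries was split into group, replicate number and rest. Group made up 91.5% for Sgk1 and 82.0% for Cited2. Replicate number made up 95.8% for Foxo3, 95.7% for Cdkn1b, 92.2% for Pik3ip1 and 74.5% for Foxo4. For Foxo1 the number made up 46.9% and the group 35.2%, for Klf2 the number 51.6% and the group 22.7%, and for Ccng2 the rest took 66.1%. Replicate number has more levels than group and so takes a larger share even without any difference, so the shares are not directly comparable. The members were chosen with the group difference known, so a high group share supports nothing. Over all tested genes the median was 9.56% for group and 74.5% for replicate number, so Foxo3, Pik3ip1 and Cdkn1b lay above the number median and Sgk1 and Cited2 far below it.

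**Figure D3:**
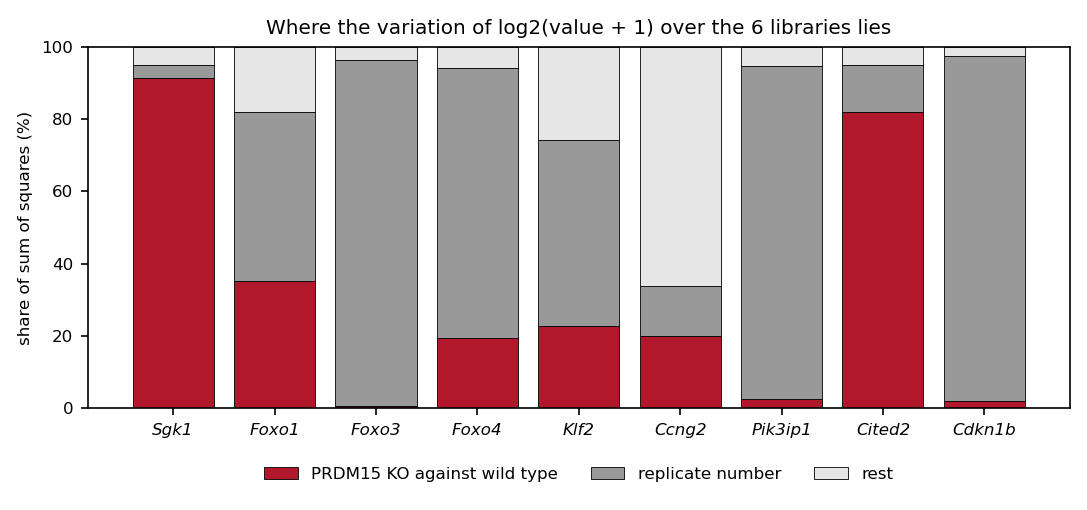
Share of the sum of squares of log2(value + 1) over the 6 libraries (percent, vertical axis) that lies between PRDM15 KO and wild type, between replicate numbers and in the rest, for each gene. The group share is 91.5% for Sgk1 and 82.0% for Cited2, and the replicate number takes over 90% for Foxo3, Pik3ip1 and Cdkn1b.

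Some members followed each other over the 6 libraries. On the log2(value + 1) scale Foxo3 and Cdkn1b had a Pearson correlation of 0.98, and Pik3ip1 ran against both, at -0.87 with Foxo3 and -0.84 with Cdkn1b. Sgk1 and Cited2 had -0.83, Foxo1 and Foxo4 -0.75, and Sgk1 and Foxo1 0.54. These are descriptions over 6 libraries that share a group and a replicate number, and in the Foxo3, Pik3ip1 and Cdkn1b values replicate 1 stands apart in both groups.

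The tested genes whose values were most like those of Sgk1 over the 6 libraries were Spsb2, Orc2, Ywhaq, Tmem14c and Tpp2, with Pearson correlations of 0.992, 0.981, 0.978, 0.975 and 0.973. They were picked as the highest among all tested genes, and Sgk1 itself was chosen on the group difference. The correlations therefore support no link to Sgk1. Spsb2, a SOCS box protein, averaged 2.20 ± 0.412 in PRDM15 KO and 0.881 ± 0.254 in wild type. Orc2, a subunit of the origin recognition complex, averaged 177 ± 1.73 in PRDM15 KO and 152 ± 4.46 in wild type. Relative to its mean, Orc2 varied less within a group than Spsb2. Ywhaq, the theta form of the 14-3-3 proteins that hold phosphorylated FOXO in the cytoplasm, averaged 204 ± 4.10 in PRDM15 KO and 192 ± 2.60 in wild type. It did not pass the threshold (limma adjusted p = 0.346 with the block and 0.9998 without). Tmem14c averaged 103 ± 1.86 in PRDM15 KO and 91.2 ± 0.553 in wild type, and the peptidase Tpp2 264 ± 2.80 in PRDM15 KO and 231 ± 6.67 in wild type. The ratio of means was larger for Sgk1 and Spsb2 than for the other 4 genes, since the correlation takes no account of size.

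Levels can be compared between genes only per length. The length used was that of all annotated exons of a gene together, 4.903 kb for Sgk1 and 8.665 kb for Foxo1. It can exceed the length of the transcripts in use, which were not determined, so the order between genes depends on it. In CPM per kilobase of exon (lengths from GENCODE M21), Foxo1 and Pik3ip1 were lowest, at 1.72 ± 0.554 and 1.81 ± 0.771 in PRDM15 KO and at 1.22 ± 0.190 and 2.05 ± 0.988 in wild type. Cdkn1b was highest, at 14.2 ± 2.85 in PRDM15 KO and 14.8 ± 2.48 in wild type. Foxo3, Foxo4 and Klf2 did not differ from each other beyond their spread in PRDM15 KO, at 6.96 ± 1.80, 6.36 ± 1.02 and 6.92 ± 4.51. In wild type they were at 7.09 ± 1.30, 7.26 ± 1.16 and 9.11 ± 1.19, with Klf2 above the FOXO factors in each library. Ccng2 was at 8.54 ± 1.94 in PRDM15 KO and 10.2 ± 1.98 in wild type.

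By the same exon lengths, Sgk1 and Cited2 changed places in that order. Per kilobase, Sgk1 was at 8.62 ± 1.10 in PRDM15 KO and 3.93 ± 0.611 in wild type, and Cited2 at 3.30 ± 0.609 in PRDM15 KO and 7.20 ± 1.85 in wild type. Sgk1 exceeded Cited2 in all 3 PRDM15 KO libraries, and Cited2 exceeded Sgk1 in all 3 wild type libraries. Against the FOXO factors, Sgk1 in wild type lay below Foxo3 and Foxo4 in every library, and in PRDM15 KO it lay above both in every library. These orders hold for the exon lengths used and may differ with the lengths of single transcripts.

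**Figure D4:**
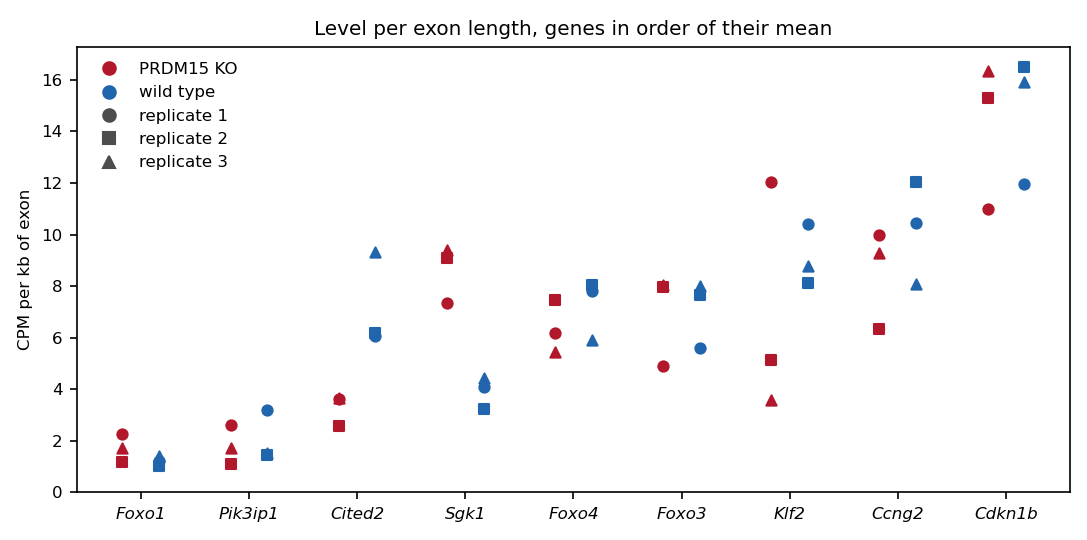
Level in CPM per kilobase of exon (vertical axis, from 0) of the 9 genes in order of their mean over 6 libraries, with PRDM15 KO in red left of wild type in blue and a shape per replicate number. Sgk1 lies between 7.36 and 9.41 in PRDM15 KO and between 3.25 and 4.43 in wild type, and Cited2 between 2.59 and 3.67 in PRDM15 KO and between 6.06 and 9.34 in wild type.

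The other genes of the pathway came from 13 lists on the kinases upstream, the targets downstream and the partners of the members, written with earlier results of these data known. Of 177 genes tested, none passed limma without the replicate number, and with it 4 passed, all lower in PRDM15 KO. That is 2.26%, against 0.873% of all tested genes in either direction and 0.741% lower, and the median log2 difference of the 177 was 0.01 against -0.03 for all. The 4 were Insr, Bnip3, Cxcr5 and Cux1, and each lost its call when pair 2 or pair 3 was left out. Earlier results of these data, among them that Insr and Bnip3 differ, were known when the lists were written, so the share is no independent evidence.

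Insr, the insulin receptor and itself a FOXO-induced gene, was at 9.05, 10.3 and 7.85 in PRDM15 KO and at 34.6, 30.9 and 35.9 in wild type. It fell by 1.80 on the log2 scale (limma adjusted p = 0.0187 with the block and 0.0637 without). Bnip3, a mitophagy receptor induced by both FOXO3 and hypoxia, was at 22.5, 21.6 and 23.0 in PRDM15 KO and at 275, 156 and 117 in wild type, and fell by 2.88 (limma adjusted p = 0.0313 with the block and 0.122 without). Both were lower in every pair with no overlap of the groups, and the part of the myeloid transcripts in these values was not tested.

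Cxcr5, the follicular homing receptor of B cells, was at 16.2, 26.5 and 11.2 in PRDM15 KO and at 38.0, 47.1 and 22.6 in wild type, and fell by 0.98 (limma adjusted p = 0.0330 with the block and 0.9998 without). The groups overlapped, and the call rests on the pairs. Cux1, a homeodomain factor that binds CBP, was at 53.6, 111 and 90.9 in PRDM15 KO and at 141, 210.5 and 225 in wild type, and fell by 1.20 (limma adjusted p = 0.0313 with the block and 0.886 without).

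**Figure D5:**
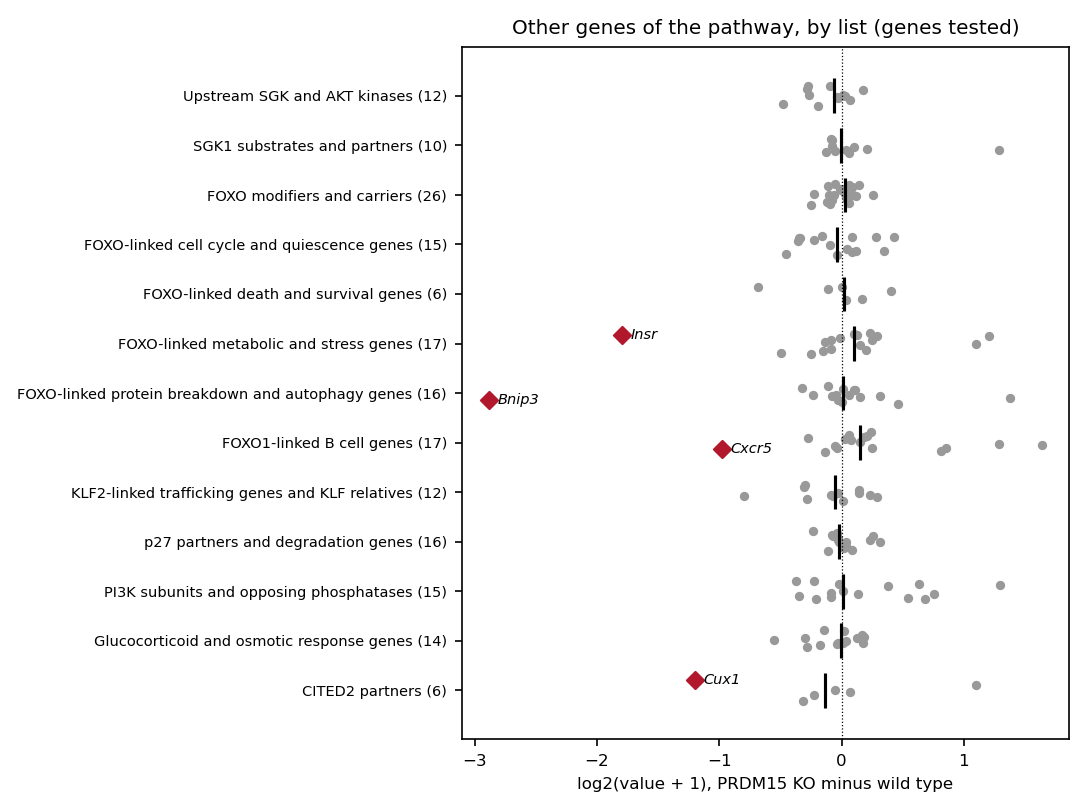
Difference of log2(value + 1), PRDM15 KO minus wild type (horizontal axis), of each tested gene in the 13 lists of other pathway genes, with a black bar for the median of the list. Red diamonds mark the 4 genes past an adjusted p of 0.05 in limma with the replicate number as a block; list medians lie between -0.14 and 0.16.

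The kinases that activate SGK1 and AKT or act beside them showed no call among 12 tested genes, with a median of -0.06. Rictor, the defining subunit of mTORC2, was at 117 ± 7.81 in PRDM15 KO and 134 ± 12.7 in wild type. Sgk3, the relative of Sgk1, named outside the rule on named genes after its values were seen, was at 82.7 ± 16.3 in PRDM15 KO and 73.6 ± 19.6 in wild type. The groups overlapped for Sgk3, whereas they did not for Sgk1; the 2 differences were not tested against each other. Mtor, the gene with the highest value of the list, was at 508, 503 and 1371 in PRDM15 KO and 632, 665 and 1496 in wild type, high in replicate 3 of both groups. Of 10 tested SGK1 substrates and partners none was called, and the median was -0.01. Fgd4, an activator of CDC42, was at 0.798, 11.1 and 5.57 in PRDM15 KO and at 1.14 ± 0.207 in wild type, so its higher values stood in the PRDM15 KO libraries with more myeloid transcripts, whose part was not tested.

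The 26 tested modifiers and carriers of FOXO proteins had a median of 0.03 and no call. Ep300, the acetyltransferase p300, was at 53.9 ± 4.68 in PRDM15 KO and 63.3 ± 4.75 in wild type. Mdm2, a ubiquitin ligase for p53 and FOXO, was at 77.5 ± 1.91 in PRDM15 KO and 70.2 ± 1.67 in wild type without overlap. The p300 groups overlapped, and neither gene passed the threshold. Xpo1, the nuclear exporter of FOXO, was at 689 ± 49.0 in PRDM15 KO and 653 ± 80.4 in wild type.

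Among 15 PI3K subunits and opposing phosphatases none was called and the median was 0.01. Pik3cd, the leukocyte catalytic subunit, was at 432 ± 47.0 in PRDM15 KO and 336 ± 79.1 in wild type. It was higher in PRDM15 KO in each pair, with overlapping groups and without passing the threshold. Phlpp1, which dephosphorylates AKT, was at 19.9 ± 3.92 in PRDM15 KO and 25.8 ± 2.75 in wild type.

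FOXO-linked genes of the cell cycle gave no call among 15 tested, with a median of -0.04. Klf6, a KLF factor with the smallest unpaired p of the list, was at 38.2 ± 8.46 in PRDM15 KO and 27.7 ± 2.38 in wild type, higher in 2 of 3 pairs. Gadd45b was at 44.8 ± 10.5 in PRDM15 KO and 61.9 ± 14.4 in wild type, Ccnd2 at 20.5 ± 3.16 in PRDM15 KO and 26.4 ± 5.94 in wild type, and Tob1 at 8.09 ± 0.619 in PRDM15 KO and 10.7 ± 1.51 in wild type. Klf6 thus lay above wild type on average, while Gadd45b, Ccnd2 and Tob1 were lower in PRDM15 KO in each pair. None of these 4 passed the threshold, and of them only Tob1 had groups that did not overlap. Ccng1, the relative of Ccng2, was at 209 ± 5.39 in PRDM15 KO and 195 ± 36.8 in wild type.

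The 6 tested death and survival genes had no call and a median of 0.02. Bcl2l1, which encodes the survival protein BCL-XL, was at 27.2 ± 14.3 in PRDM15 KO and 40.9 ± 12.3 in wild type, lower in each pair, and Bcl2l11, which encodes the killer protein BIM, was at 77.2 ± 6.50 in PRDM15 KO and 69.2 ± 10.4 in wild type, higher in each pair. The groups overlapped for both. The 16 partners and degradation genes of p27 had no call and a median of -0.02, with Ccne1, cyclin E1, at 62.3 ± 6.89 in PRDM15 KO and 51.9 ± 4.16 in wild type.

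Of 17 tested metabolic and stress genes linked to FOXO, Insr was the call and the median was 0.11. Txnip, which limits glucose uptake, was at 125 ± 18.9 in PRDM15 KO and 178 ± 38.9 in wild type, and Cat, catalase, at 208 ± 88.8 in PRDM15 KO and 172 ± 61.7 in wild type. The groups overlapped for both. Txnip was lower in PRDM15 KO in each pair, and its overlap was PRDM15 KO replicate 2 at 146.6 against wild type replicate 3 at 146.3. It did not pass in limma with the block (adjusted p = 0.0590). Cat was higher in PRDM15 KO in each pair. Of 16 genes of protein breakdown and autophagy, Bnip3 was the call and the median was 0.01. Fbxo32, the ubiquitin ligase atrogin-1, was at 13.8 ± 1.64 in PRDM15 KO and 9.91 ± 2.49 in wild type, while Tfeb, a lysosomal regulator, was at 28.4 ± 1.20 in PRDM15 KO and 36.0 ± 5.64 in wild type. The groups did not overlap for Fbxo32 or for Tfeb.

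Of 17 tested B cell genes linked to FOXO1, Cxcr5 was the call and the median was 0.16. Rag1, a recombination gene that FOXO1 induces in developing B cells, was at 18.1, 4.11 and 4.69 in PRDM15 KO and at 0.721, 1.78 and 2.85 in wild type, without overlap and without passing the threshold (limma adjusted p = 0.216 with the block and 0.9998 without). Rag1 and Foxo1 had their highest value in the same library, PRDM15 KO replicate 1. Rag2, its partner, named outside the rule after its values were seen and under the filter, was at 2.46, 0.627 and 1.14 in PRDM15 KO and 0.107, 0.627 and 0.535 in wild type. Il7r, named likewise, encodes the receptor for the IL7 in the medium and was at 51.8, 83.5 and 192 in PRDM15 KO and 28.7, 35.7 and 132 in wild type, higher in each pair. Pax5 went the other way, at 95.1 ± 11.6 in PRDM15 KO and 115 ± 14.9 in wild type, lower in each pair with overlapping groups. Of the 17 genes, 4 were higher and 2 lower in all 3 pairs, against 16.7% and 29.9% of all tested genes, so the list did not share a direction.

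The 12 tested KLF2-linked trafficking genes and KLF relatives had no call and a median of -0.05. S1pr1, the exit receptor that KLF2 induces in T cells, named after its values were seen, was at 71.8, 10.9 and 11.8 in PRDM15 KO and at 61.6, 7.32 and 10.7 in wild type. It followed the replicate number, as it was high in replicate 1 of both groups. In pairs 2 and 3, where Klf2 was lower in PRDM15 KO, S1pr1 was not. Thbd, thrombomodulin, another KLF2-induced gene, was at 29.1, 38.1 and 63.8 in PRDM15 KO and at 52.1, 83.6 and 87.4 in wild type, lower in each pair with overlapping groups.

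Glucocorticoid and osmotic response genes were listed because Sgk1 was first known as a gene induced by these stimuli. None of the 14 tested was called and the median was -0.01. Ddit4, a stress-induced inhibitor of mTORC1, was at 21.0 ± 3.32 in PRDM15 KO and 31.3 ± 5.64 in wild type, lower without overlap while Sgk1 was higher. Tsc22d3, the glucocorticoid-induced leucine zipper, named outside the rule, was at 23.8 ± 2.68 in PRDM15 KO and 23.7 ± 6.16 in wild type. Of 6 tested genes listed as CITED2 partners Cux1 was the call, and the median was -0.14. Cux1 stands in that list as a factor that binds CBP, and not as a known partner of CITED2 itself. Cited1, the relative of Cited2, was at 33.8 ± 11.4 in PRDM15 KO and 40.9 ± 2.58 in wild type with overlapping groups.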

How the data were processed

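RNA-seq of 6 libraries of lymphoma B cells was analysed, 3 labelled PRDM15 KO and 3 wild type. Per the submitters' processing notes, the tools were STAR 2.4.2a, HTSeq, CASAVA and edgeR and the build was mm9, without their roles. Annotation and strand setting were not given in the sources used here. The deposited table calls its values FPKM, but they are a signal: per the deposited values, each is a whole number of reads times a step that is the same for all genes of a library. With a tolerance of 0.01 reads, 100% came out whole, and the effective library size was 0.970 to 1.04 times the reads. The design had assumed FPKM, and its limma test was kept.

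Of 21448 genes, 919 had no read and 10533 were tested, those averaging 1 or more over the 6 libraries. limma 3.58.1 (R 4.3.3) was run two-sided on log2(value + 1), with a prior variance trended on the mean, adjusted by Benjamini-Hochberg over the 10533 genes, with the threshold at 0.05, without and with the replicate number as a block. edgeR 4.0.16 and DESeq2 1.42.0 on the recovered reads, other pseudocounts, filters and scalings, and leaving out libraries were alternatives. The pipeline was tested on simulated data in which the spread between libraries was set and not taken from these libraries. That test checks the code and does not measure how many true changes are found here. After subtracting group means, the correlation over genes was 0.733, 0.726 and 0.837 for libraries with equal numbers and -0.606 to -0.139 for unequal ones. The subtraction itself makes the unequal ones negative on average once the equal ones are positive, so they add nothing. Equal numbers were treated as pairs because of their positive correlations. This comes from the data, since the labels do not say what a number shares. No 2 libraries of a group were alike within counting error (chi-square over degrees of freedom at least 68.1). p-values measure the spread between these libraries.

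The members and the lists of other genes were chosen with earlier results of these data known. Of 287 list entries, 283 matched the table. Named from each list were genes past the threshold in either limma fit, then those with the smallest unpaired p up to 4, then the one with the highest mean, and some of these are printed; a few are not reported here. Marker lists gave up to 2 genes with the highest mean, and genes like Sgk1 were the 5 with the highest Pearson correlation. Genes outside this rule are said to be so. Promoter windows are from RefSeq (GRCm38.p6), exon lengths and overlapping genes from GENCODE M21.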

Additional observations from a re-analysis of the deposited data

How the results depend on the processing

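Sgk1 stayed higher in PRDM15 KO, and Cited2 lower, in every alternative run: the log2 difference of Sgk1 ranged from 0.88 to 1.24 and that of Cited2 from -1.20 to -0.78. Foxo1 ranged from 0.21 to 0.85, Foxo4 from -0.32 to -0.08, and Klf2 from -0.99 to 0.39, the last of these with PRDM15 KO replicate 1 alone against wild type. Foxo3 (-0.51 to 0.19), Ccng2 (-0.48 to 0.07), Pik3ip1 (-0.43 to 0.41) and Cdkn1b (-0.41 to 0.11) took both signs. The cause was not tested for any of these.

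Without the replicate block, 1 gene of all tested passed, 0 with a pseudocount of 0.1 or 5, no filter, quantile normalization or edgeR (582 at an unadjusted p under 0.05, against 428 in limma), 2 with a filter at a mean value of 5, 110 with DESeq2, 0 with PRDM15 KO replicate 1 alone and 0 without any single library. With the block 92 passed, 5 without a filter, 187 with a filter at 5, 39 with edgeR and 738 with DESeq2. Leaving out a pair gave 0 to 840, namely 840 without pair 1 and 0 without pair 2 or pair 3 (2262, 1415 and 1240 at an unadjusted p under 0.05 in limma); each of these fits has 4 libraries, and the cause was not tested.

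None of the 9 members passed without the block, 1 with it (Sgk1) and 2 with DESeq2 without the block (Sgk1 and Cited2). In the fit with the block, the 1 member became 2 with a pseudocount of 0.1, with a filter at 5 and with DESeq2 (Sgk1 and Cited2), 0 without a filter, 0 with edgeR and 0 without the block. Leaving out a pair gave 0 to 3, with Sgk1, Klf2 and Cited2 past without pair 1 and none without pair 2 or pair 3. Of the other pathway genes, 0 passed without the block, 1 with a filter at 5 (Insr), 3 with DESeq2 and 4 with the block. The 4 with the block became 0 without a filter, 7 with a filter at 5, 18 with DESeq2, 0 without the block and 0 to 25 when a pair was left out. Insr, Bnip3, Cxcr5 and Cux1 each lost the call without a filter, without the block and without pair 2 or pair 3.

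The median log2 change of the members, -0.15, was -0.30 to -0.11 when a library was left out, with -0.30 without wild type replicate 3, and -0.00818 with PRDM15 KO replicate 1 alone. Prdm15 turned from 0.06 to -0.14 without wild type replicate 1, and leaving out a library gave -0.14 to 0.20. Of 52 other named genes without a call, 14 changed sign in 36 of 1394 gene and setting combinations.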
